A study of Rattus norvegicus with 2 samples.

Results

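Filamins and the muscle-type linkers treated here are 8 genes whose proteins fasten the actin or spectrin skeleton to membranes, to the Z-disc of muscle or to adhesion sites. They are Flna, Flnc, Synpo, Synpo2, Klhl41, Sspn, Sorbs2 and Ank2, 8 of the 14217 genes represented on the array. The genes were picked by name, with their ratios in these arrays already known, and every probe set annotated to exactly 1 of them was taken, 20 in all. Their values below are therefore a description and carry no test.

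The arrays came from AT6.1 cells, a metastatic rat prostate cancer line of the Dunning tumour series. The Ndrg-1 clone is number 7, transfected with pcDNA3 into which N-myc downstream regulated gene-1 (Ndrg1) was inserted, and the vector clone is number 9, which carries pcDNA3 with no insert. Both were cultured in RPMI with 10% fetal calf serum and 0.3 mg/mL G418, the drug that selects for the vector. Each group is a single clone on 1 array with no replicate, and clone, culture, array and insert cannot be told apart.

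The deposited value is 1 signal (intensity, linear scale) per probe set and array. Median signals were 31.1 in the Ndrg-1 clone and 31.2 in the vector clone. Ratios are given as log2 of the Ndrg-1 signal over the vector signal after the vector clone was rescaled by 0.0048 on the log2 scale. Signals under a floor of 31.0, the median of all signals, were set to the floor, so a ratio with 1 array at the floor is a bound. Each gene is represented by its brightest probe set by mean log2 signal, and a difference is counted from 2-fold upwards. Above the floor in 1 clone or both were 9183 genes (the measured genes), of which 1.62% were 2-fold or more higher in the Ndrg-1 clone and 1.5% 2-fold or more lower. The clone labelled Ndrg-1 was not 2-fold higher for Ndrg1 itself, whose probe sets had log2 ratios of 0.34 and -0.24. The only error the table holds is the disagreement between probe sets of 1 gene, an SD of 0.23 on the log2 scale over 5341 probe sets of 2298 genes, which leaves out variation between clones, cultures and arrays.

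Filamins are long dimeric rods that cross-link actin filaments and bind integrins and other membrane proteins. Flna encodes the filamin found in most cells and Flnc the form typical of striated muscle, where it sits at the Z-disc and the sarcolemma. Synaptopodins bind actin, alpha-actinin and filamin C, and Klhl41 is a kelch protein that works with the Cul3 ubiquitin ligase and stabilises thin filaments in muscle. Sarcospan (Sspn) belongs to the dystrophin-glycoprotein complex, Sorbs2 is an adaptor between vinculin, Abl kinases and actin, and ankyrin-B (Ank2) ties channels and adhesion proteins to spectrin.

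Of the 8 genes, 4 were lower in the Ndrg-1 clone by 2-fold or more (Flnc, Sspn, Synpo2 and Klhl41), 2 were higher by 2-fold or more (Ank2 and Sorbs2), and Flna and Synpo were under 2-fold. In either direction 3.13% of all measured genes reached 2-fold. Since the genes were chosen from this contrast, the share of members says nothing further. The median log2 ratio of the 8 was -0.52, against 0.0029 over all measured genes, and the median size without regard to sign was 1.97 against 0.20. Among the 9183 ratios Flnc was number 2 from the lowest, Sspn number 10, Synpo2 number 29 and Klhl41 number 122. Ank2 was number 14 from the highest and Sorbs2 number 16.

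**Figure D1:**
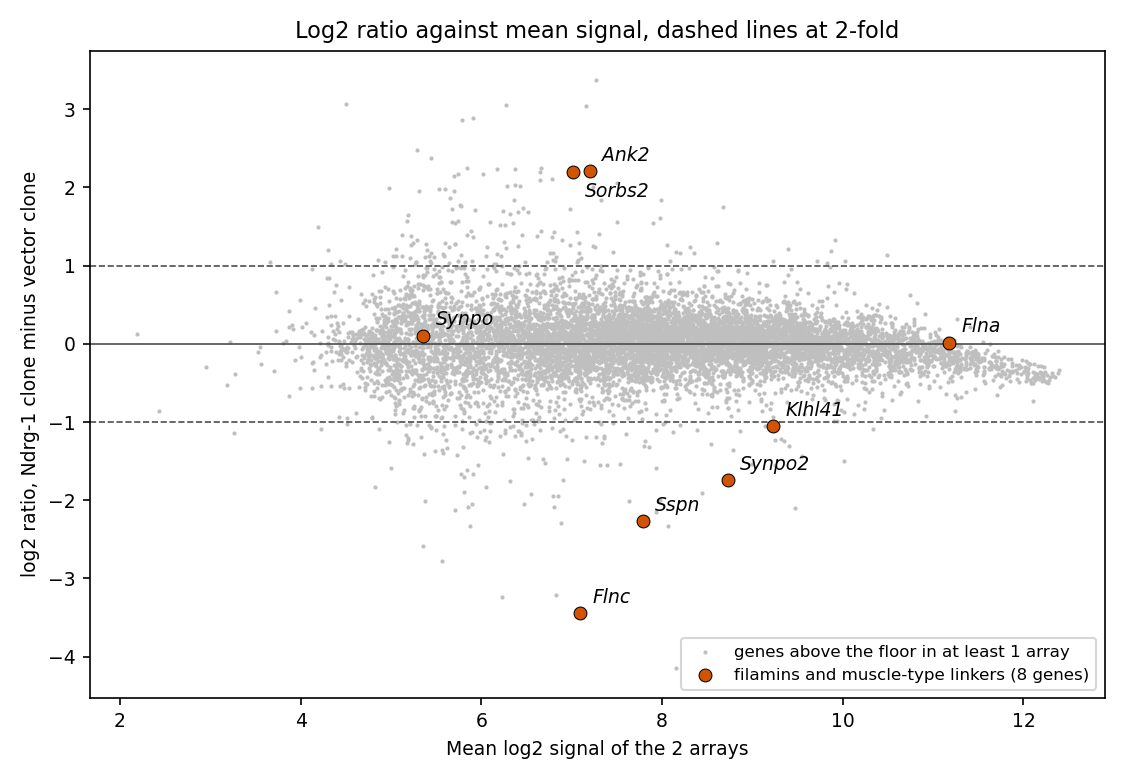
Log2 ratio (Ndrg-1 clone minus vector clone) against the mean log2 signal of both arrays, 1 point per measured gene, with the 8 genes named and dashed lines at 2-fold. Flnc, Sspn, Synpo2 and Klhl41 lie below the lower line, Ank2 and Sorbs2 above the upper one, and Flna and Synpo near 0.

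Of the 20 probe sets, 12 were above the floor in both arrays, 3 in 1 array and 5 in neither. The 5 were 2 of Synpo, 1 of Synpo2 and 2 of Ank2, and they have no ratio. Among the 15 with a ratio, 9 were lower by 2-fold or more in the Ndrg-1 clone and 2 were higher by as much. No probe set listed 1 of the 8 genes together with another gene.

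**Figure D2:**
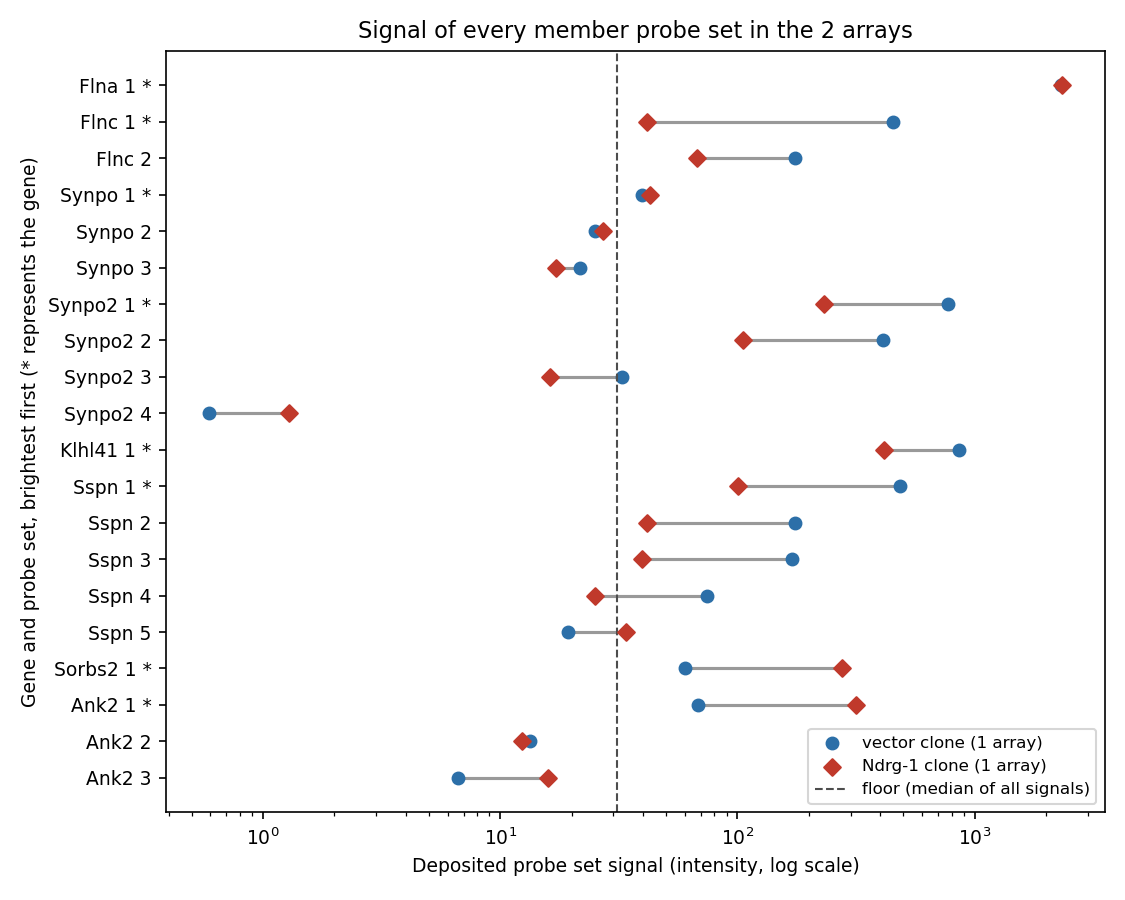
Deposited signal (log scale) of the 20 probe sets in the Ndrg-1 clone (diamonds) and the vector clone (circles), 1 array each, ordered by gene and brightness, with the floor as a dashed line and a star on the probe set that represents the gene. The 2 probe sets of Flnc, the 2 bright ones of Synpo2 and 4 of the 5 of Sspn are lower in the Ndrg-1 clone, while the single bright probe sets of Sorbs2 and Ank2 are higher.

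The filamins differed from each other. Flna (probe set 1371382_at) read 2336 in the Ndrg-1 clone and 2308 in the vector clone, a log2 ratio of 0.01. Flnc (1388496_at) read 41.5 in the Ndrg-1 clone and 451 in the vector clone, 10.9-fold lower (log2 ratio -3.45). The other Flnc probe set (1396085_at) gave 67.7 and 175, 2.60-fold lower (log2 ratio -1.38). Both Flnc probe sets were lower, but their ratios were 2.07 apart on the log2 scale, far more than the SD of 0.23 between probe sets of a gene, so the size of the Flnc difference is poorly fixed.

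The 250 bases before the annotated starts of both filamin genes are shown because Flnc and Flna had such different ratios. They are from RefSeq on the rat assembly GRCr8, 5′ to 3′ on the gene's strand (chr4:58999297-58999546, plus strand, for Flnc, and chrX:157182344-157182593, minus strand, for Flna), with CATTCC, the core of the MCAT element bound by TEAD factors, in capitals.
Flnc: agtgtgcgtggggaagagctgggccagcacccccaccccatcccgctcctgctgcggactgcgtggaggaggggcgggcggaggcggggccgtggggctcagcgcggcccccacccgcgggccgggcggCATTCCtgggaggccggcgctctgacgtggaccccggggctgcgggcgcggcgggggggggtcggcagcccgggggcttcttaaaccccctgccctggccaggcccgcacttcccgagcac
Flna: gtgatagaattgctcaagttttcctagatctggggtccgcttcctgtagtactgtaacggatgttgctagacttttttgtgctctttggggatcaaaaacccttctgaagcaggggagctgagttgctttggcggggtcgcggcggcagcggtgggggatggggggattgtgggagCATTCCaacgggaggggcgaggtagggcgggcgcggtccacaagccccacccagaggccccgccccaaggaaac
The Flnc stretch was 78.4% G and C and the Flna stretch 59.2%, against a median of 51.2% over all promoters in the table. Each held CATTCC once, its first base 121 bases before the start in Flnc and 74 before it in Flna, so this match is in the filamin that differed and in the one that did not. The letters CATTCC, on either strand, occur in 14.2% of 33469 RefSeq promoters of 300 bases (250 before and 50 after the start) and in 11.2% of those of measured genes.

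The synaptopodin genes also went separate ways. Synpo2, which encodes myopodin, read 232 in the Ndrg-1 clone and 774 in the vector clone on its brightest probe set (1371679_at), 3.35-fold lower. Its next probe set (1384160_at) read 106 and 413, 3.91-fold lower, so the pair of bright probe sets had log2 ratios of -1.75 and -1.97. These are closer together than the SD of 0.23 between probe sets of a gene over all genes. They are further apart than the SD of 0.18 among genes with a mean signal above 270.0, where Synpo2 lies. A dim probe set (1376398_at) read 16.1 and 32.7, a bound of at least 1.06-fold lower, and the dimmest (1393528_at) read 1.28 and 0.591 and has no ratio. Synpo, the synaptopodin of kidney podocytes and dendritic spines, had signals of 42.6 and 39.5 (1388786_at, log2 ratio 0.10), just above the floor. Its other probe sets were under the floor in both arrays at 27.0 against 24.98 and 17.1 against 21.8. Synpo2l, the remaining relative, read 25.5 in the Ndrg-1 clone, under the floor, and 35.9 in the vector clone, at least 1.16-fold lower.

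Klhl41 had 1 probe set (1368252_at), with a signal of 416 in the Ndrg-1 clone and 859 in the vector clone, 2.07-fold lower. It lies closest of the 6 counted genes to the 2-fold line. Its ratio was -1.05, and -0.51 when scaled to the hybridisation spikes. The SD between probe sets of brighter genes (those with a mean signal above 270.0) was 0.18. That SD leaves out variation between clones, cultures and arrays, and Klhl41 has no second probe set, so it does not say how firm the ratio is. Klhl40, the closest relative and likewise a stabiliser of thin filaments, read 54.5 and 62.2 (log2 ratio -0.19).

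The stretch before the Klhl41 start (chr3:74841868-74842117, plus strand, GRCr8) is shown for its MEF2 site, here in capitals. This is the element bound by the muscle transcription factors of the MEF2 family. Among the 7 promoters at hand for these genes (Sorbs2 had none), that of Klhl41 alone held the site.
Klhl41: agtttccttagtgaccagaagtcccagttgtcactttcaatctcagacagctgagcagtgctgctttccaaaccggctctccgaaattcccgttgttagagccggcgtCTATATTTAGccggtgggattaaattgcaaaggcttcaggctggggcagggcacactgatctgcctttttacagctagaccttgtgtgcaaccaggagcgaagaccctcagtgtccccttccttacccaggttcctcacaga
The site runs from 142 to 133 bases before the start and occurs, on either strand, in 3.29% of all promoters in the table and in 1.46% of the 8629 promoters of measured genes. The MEF2 family genes themselves were measured at log2 ratios of -0.07 for Mef2a, -0.34 for Mef2c and -0.28 for Mef2d. None of the 3 reached 2-fold.

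Sspn had the most probe sets, 5. The brightest (1388866_at) read 101 in the Ndrg-1 clone and 484 in the vector clone, 4.82-fold lower. The next 2 read 41.4 against 175 (1395201_at, 4.24-fold lower) and 39.6 against 170 (1379370_at, 4.29-fold lower). These 3 probe sets, all above the floor in both arrays, had log2 ratios from -2.27 to -2.09, a narrower range than the SD between probe sets of a gene. The fourth (1380563_at) read 25.1 and 74.1, at least 2.40-fold lower. The fifth (1381935_at) went the other way at 33.8 and 19.3, at least 1.09-fold higher, with the Ndrg-1 signal barely above the floor.

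The promoters of Sspn (chr4:180627632-180627881, plus strand) and Synpo2 (chr2:214055845-214056094, minus strand) complete the group that was lower in the Ndrg-1 clone. CATTCC is in capitals where it occurs.
Sspn: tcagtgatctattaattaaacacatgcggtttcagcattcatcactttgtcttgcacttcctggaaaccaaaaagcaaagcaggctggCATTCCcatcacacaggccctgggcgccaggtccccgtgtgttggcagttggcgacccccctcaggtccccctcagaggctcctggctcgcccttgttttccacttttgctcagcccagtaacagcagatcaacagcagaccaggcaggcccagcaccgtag
Synpo2: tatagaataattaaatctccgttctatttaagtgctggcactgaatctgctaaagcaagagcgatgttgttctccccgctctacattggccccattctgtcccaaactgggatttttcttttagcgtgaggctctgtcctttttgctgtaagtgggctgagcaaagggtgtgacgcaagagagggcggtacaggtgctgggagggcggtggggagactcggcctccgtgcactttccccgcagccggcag
CATTCC began 162 bases before the Sspn start and was not in the Synpo2 window. The promoter table matched 7 of the 8 genes, without Sorbs2. Of these 7, CATTCC was in 3 (Flnc, Sspn and Flna), the MEF2 site in 1, and CANNTG, the E-box, in 3 (Synpo2, Klhl41 and Sspn) against 72.1% of all promoters and 61.8% of those of measured genes. The CArG box bound by SRF was in 0 of the 7, against 1.64% of all promoters and 1.45% of those of measured genes. None of the 4 motifs searched was in all 4 of the genes that were lower. Whether any of them acts on these genes was not tested.

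Sorbs2 and Ank2 were higher in the Ndrg-1 clone by almost the same factor. Sorbs2 (1387018_at), which has 1 probe set, read 276 in the Ndrg-1 clone and 60.2 in the vector clone, 4.57-fold higher. Ank2 (1373351_at) read 317 and 68.4, 4.61-fold higher. The log2 ratios of 2.19 and 2.21 differ by less than the SD between probe sets of a gene. The other Ank2 probe sets were under the floor in both arrays, at 12.4 against 13.4 (1398125_at) and 15.9 against 6.62 (1396612_at), so neither Ank2 nor Sorbs2 has a second probe set with a ratio.

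The Ank2 promoter (chr2:218628415-218628664, minus strand) is the one at hand for the higher pair, and it held none of the 4 motifs.
Ank2: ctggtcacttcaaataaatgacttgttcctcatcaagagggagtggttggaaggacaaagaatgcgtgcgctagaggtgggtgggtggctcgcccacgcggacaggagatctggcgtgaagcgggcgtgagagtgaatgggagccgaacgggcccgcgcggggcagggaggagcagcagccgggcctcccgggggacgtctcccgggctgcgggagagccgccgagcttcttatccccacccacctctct
Sorbs3, the relative of Sorbs2 that encodes vinexin, read 148 and 199 (log2 ratio -0.43), and its other probe sets had ratios of -0.12 or lower and 0.48. Ank3, ankyrin-G, read 18.1 and 45.6, at least 1.48-fold lower, and Ank1, the ankyrin of red blood cells, was under the floor in both arrays at 17.4 and 4.35. When the floor was lowered to the 25th percentile Ank3 was at -1.34.

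The partners of these 8 genes were set beside them. Outside the 8 genes, lists of filamin-binding proteins, synaptopodins, kelch and nebulin assembly factors, the dystrophin-glycoprotein complex, the sorbin-homology family with its partners, and ankyrins with spectrins held 56 genes on the array. Of these, 33 were measured and 0 reached 2-fold in either direction, against 3.13% of all measured genes. At that share a list of this size can hold few or none. Hspb7, which binds filamin C and was 4.44-fold lower on its brightest probe set, is in the filamin turnover list and is not counted here. The median log2 ratio of the 33 was -0.19, with 24 below 0 and 9 above. The extremes were Fblim1 (migfilin, -0.92) and Rflnb (refilin B, 0.64). Scaling to the hybridisation spikes, which moved the median gene by 0.53, put 25 of 29 above 0 and left every list median given below above 0, other than those of the filamins and the synaptopodins. Under that scaling 2 reached 2-fold (Epb41l1 and Rflnb, higher), and when scaled to the poly-A spikes 2 did so (Fblim1 and Utrn, lower). When the floor was lowered to the 25th percentile, 5 of 45 reached 2-fold, Ank1 being higher and Ank3, Nrap, Rflna and Sgca lower.

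**Figure D3:**
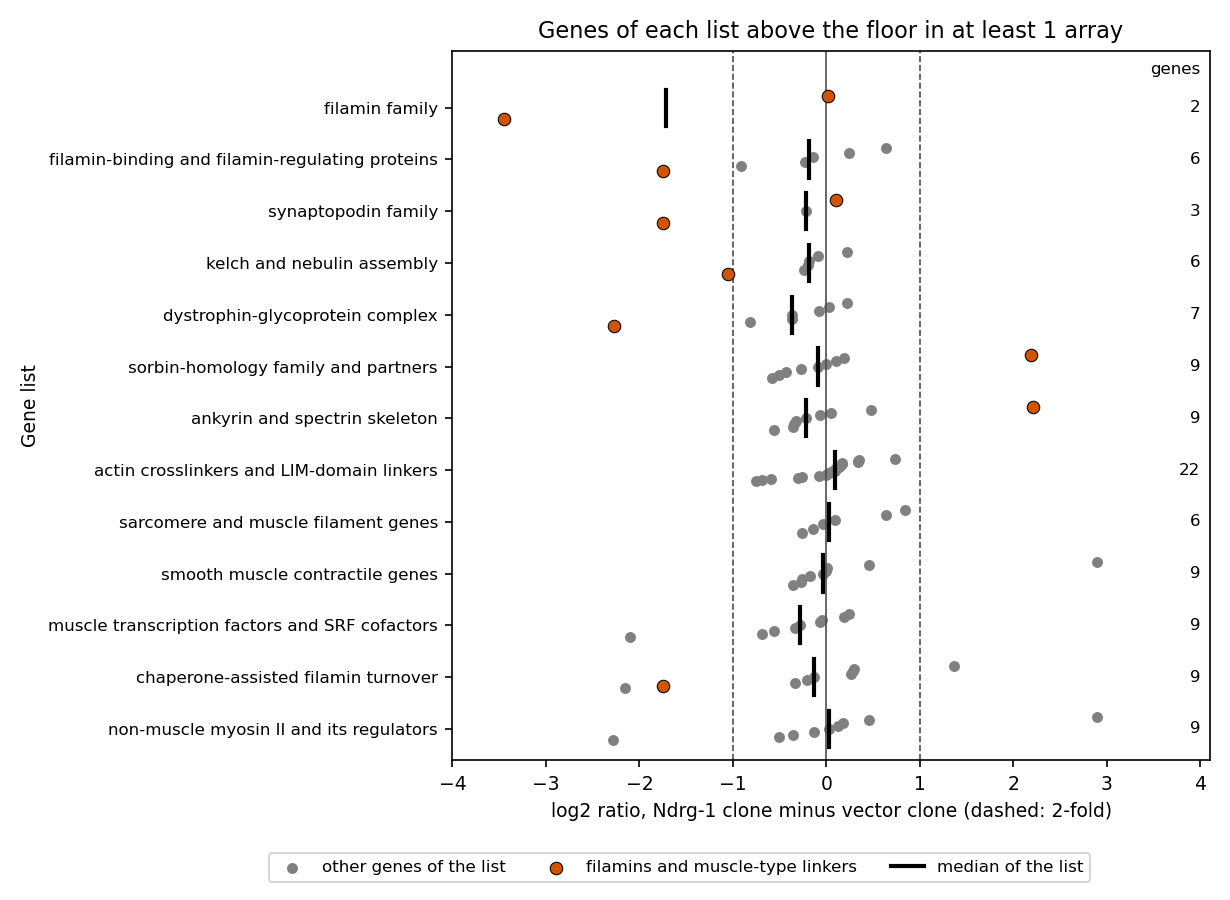
Log2 ratio (Ndrg-1 clone minus vector clone) of the measured genes in each list, with the number of genes at the right, the list median as a black bar, dashed lines at 2-fold, and the 8 genes in orange. In the lists of filamin-binding proteins, synaptopodins, kelch and nebulin factors, the dystrophin complex, sorbin-homology proteins and ankyrins, the points beyond the dashed lines are those of the 8 genes.

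Within the dystrophin-glycoprotein complex, 7 of the 12 genes represented were measured, with a median of -0.36 (-0.22 without Sspn). Apart from Sspn they ranged from Utrn (utrophin, 65.4 against 115, -0.82) to Dtna (dystrobrevin alpha, 0.22). Dag1, the dystroglycan that spans the membrane, read 626 and 806 (-0.37), and Sgcb (beta-sarcoglycan) read 229 and 241 (-0.07). Dmd, dystrophin itself, was under the floor in both arrays at 1.83 and 1.55. Sspn was thus the 1 gene of the complex on the array with a counted difference.

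Around Sorbs2, the partner Vcl (vinculin) was at -0.01, Abl2 (the Arg kinase) at 0.10, Cbl at -0.09 and Pxn (paxillin) at -0.58. The list had 1 of 9 measured genes at 2-fold, Sorbs2, and a median of -0.09. Around Ank2, the spectrin chains Sptan1 and Sptbn1 were at -0.07 and -0.22 and the adducin Add3 at -0.33, and the list had 1 of 9 at 2-fold, Ank2, and a median of -0.22. Around Klhl41, its ligase subunits Cul3 and Rbx1 were at -0.24 and -0.19 and the actin-binding Lasp1 at 0.22, with 1 of 6 at 2-fold and a median of -0.19. In the list of filamin-binding proteins, which leaves out Hspb7, 1 of 6 was at 2-fold, Synpo2, with a median of -0.19. The 3 synaptopodins had a median of -0.22 and the filamins, with 2 genes, one of -1.72.

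Other actin cross-linkers and LIM-domain linkers did not reach 2-fold. Of 31 genes on the array 22 were measured and 0 were 2-fold higher or lower, against 3.13% of all measured genes. At that share a list of this size can hold few or none. The median was 0.09, with Lima1 (456 against 273, 0.74) and Csrp2 (32.9 against 55.4, -0.76) at the ends. The alpha-actinins Actn1 and Actn4, the non-muscle forms, were at 0.34 and 0.0018.

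Genes that define muscle were mostly under the floor. Of 29 sarcomere and muscle filament genes on the array 23 were under it in both arrays, among them the skeletal actin Acta1, titin (Ttn) and nebulin (Neb), and 0 of the 6 measured reached 2-fold (median 0.03). Mybpc3, under the floor in the vector clone, has only a bound of 0.84, which became 2.85 when the floor was lowered to the 25th percentile, and was at 1.64 with the pseudocount and no floor. The summed signal of the list was 1301 in the Ndrg-1 clone and 940 in the vector clone, most of it from Myh1. Of 14 smooth muscle genes 5 were under the floor, including the markers Tagln, Cnn1 and Myl9. Acta2, smooth muscle actin, read 208 in both arrays, and the list had a median of -0.03 with 1 gene at 2-fold, Mylk. The list's summed signal was 4133 and 4625. The muscle transcription factors and SRF cofactors had 9 of 16 above the floor and a median of -0.28. Srf was at 0.24 and Mrtfa at -0.05, Myod1 was under the floor in the Ndrg-1 clone (6.70 against 45.5, at least 1.48-fold lower), and Myog and Myocd were under it in both. The 1 gene of this list at 2-fold was Hopx, a transcriptional cofactor, at 343 against 1465 (4.29-fold lower).

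Genes for the turnover of damaged filamin by the Bag3 chaperone complex, in which Synpo2 takes part, were measured in 9 of 9 cases, with a median of -0.13 that was above 0 under quantile normalization (0.08), with the lowess trend removed (0.05) and scaled to the hybridisation spikes (0.41). Bag3 itself read 935 and 760 (0.29), and its partner Hspb8 was at 0.26. At 2-fold were Synpo2, the small heat shock protein Hspb7, lower by 4.44-fold (second probe set at -0.88), and the inducible chaperone Hspa1a, higher by 2.58-fold. Hspb7, which binds filamin C, had a ratio of -2.15. That ratio was next to that of Sspn in the order of genes above the floor in both arrays.

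Markers of other cell types were checked as well. Of the epithelial and prostate markers on the array 1 of 8 was above the floor (Krt8, 38.7 against 46.2, -0.26), with Cdh1, Epcam and Krt18 under it in both arrays, so the labelled prostate origin has no epithelial marker well above the floor. The list's summed signal was 76.2 and 87.0. Of 10 fibroblast and mesenchyme markers 6 were measured (median -0.05, summed signal 11465 and 12945), with Col1a1 2.16-fold higher and Col3a1 2.93-fold lower. Col1a1 was under 2-fold when scaled to the poly-A spikes (0.90), with the pseudocount (0.97) and as the median over its probe sets (0.98). Of 7 leukocyte markers 3 were measured, Cd68 at 0.85, Cd14 at -0.56 and Csf1r at -0.11 or lower (median -0.11, summed signal 479 and 490), while Ptprc was under the floor in both arrays. Of 5 endothelial markers 0 were measured (summed signal 24.4 and 49.8). The part of any other cell type in the ratios of the 8 genes was not tested.

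Position on the chromosomes was set beside the ratios, using the gene order of the RefSeq annotation. Synpo2 and Ank2 lie on chromosome 2 with 11 annotated protein-coding genes between them, yet one was 3.35-fold lower and the other 4.61-fold higher. The 3 measured genes between them were Sec24d at -0.21, Mettl14 at 0.14 and Camk2d at 0.08. Flnc and Sspn are both on chromosome 4, but neither is among the 5 measured genes on either side of the other. Over the 8 genes, the 10 nearest measured neighbours had median log2 ratios from -0.03 (Sorbs2) to 0.14 (Ank2). Apart from Synpo2 and Ank2 themselves, Bcar3 near Synpo2 was the 1 neighbour at 2-fold, at -1.08. Bcar3 was under 2-fold when scaled to the hybridisation spikes (-0.54), with the floor at the 75th percentile (-0.02) and with the pseudocount (-0.95).

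**Figure D4:**
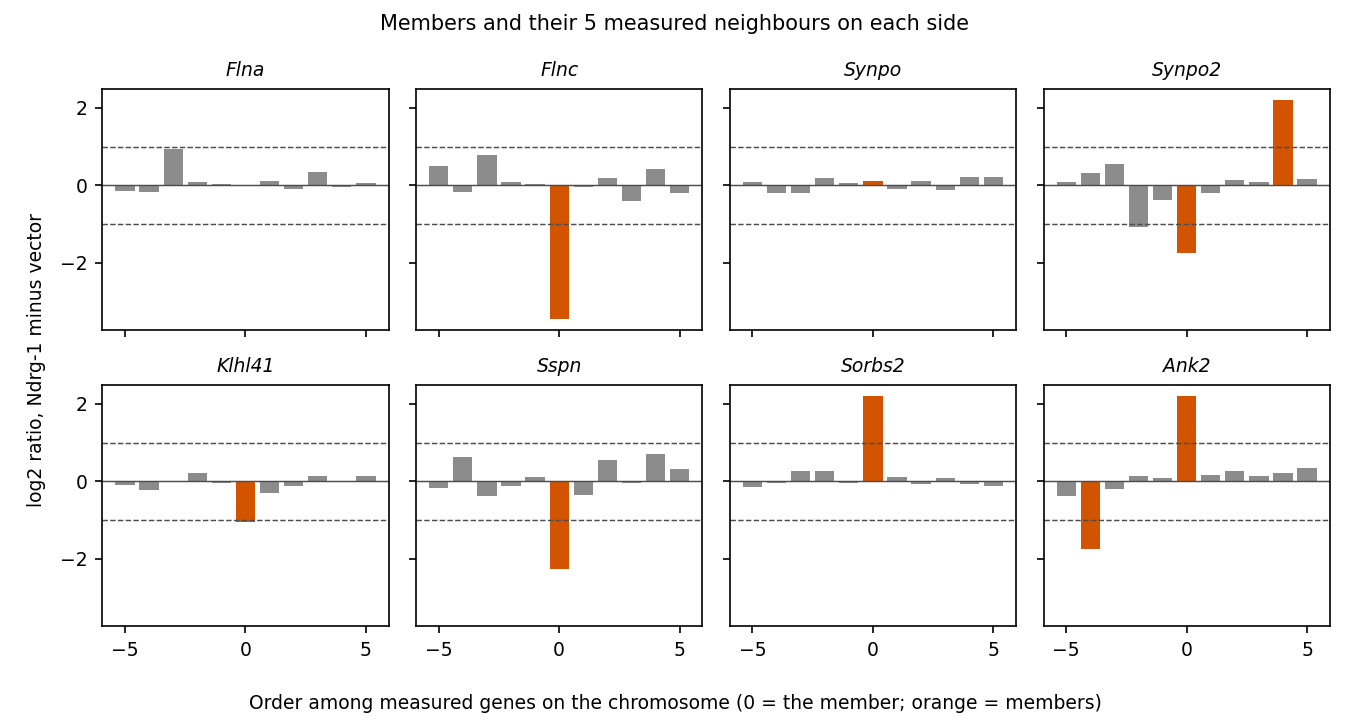
Log2 ratio (Ndrg-1 clone minus vector clone) of each of the 8 genes (orange, at 0) and of the 5 nearest measured genes on each side in chromosome order (grey), with dashed lines at 2-fold. The counted genes stand alone, except that Synpo2 and Ank2 appear in each other's panels and Bcar3 lies below the lower line next to Synpo2.

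The genes with the most similar ratios, taken as the next above and the next below in the order of the 8562 genes above the floor in both arrays, came from other groups. Likeness here rests on 1 ratio from 2 arrays. Next to Flnc were Crisp3 (-4.15) and Ctsh (-3.20), next to Sspn the non-muscle myosin Myh10 (-2.29) and Hspb7 (-2.15), next to Synpo2 Cstpp1 (-1.75) and Clec11a (-1.74), and next to Klhl41 Antkmt (-1.05) and Insig1 (-1.05). Between Sorbs2 and Ank2 lay Irak1bp1 (2.20), with Rps6ka6 (2.11) below and Gpr15lg (2.23) above them.

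Under 10 other ways of processing, the directions of the 6 counted genes did not turn. Flnc, Sspn and Synpo2 were at least 2-fold lower under all 10. Flnc was between -3.66 and -1.40 (-2.41 as the median of its probe sets), Sspn between -2.48 and -1.50 and Synpo2 between -1.96 and -1.20. The ends of -1.40 for Flnc and -1.50 for Sspn are bounds, with the floor at the 75th percentile and the Ndrg-1 signal under it. Klhl41 lost its 2-fold difference when the arrays were scaled to the hybridisation spikes, at -0.51. Sorbs2 and Ank2 lost theirs when the floor was raised to the 75th percentile, where they were at 0.69 or more and 0.88 or more. Flna ranged from -0.20 to 0.56 and Synpo from -0.11 to 0.46, both turning below 0 when scaled to the poly-A spikes. With the floor raised to the 75th percentile Synpo had no ratio. Flna lies at high signal, where the ratios of all genes bend downward, and with that trend removed it was at 0.17.

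**Figure D5:**
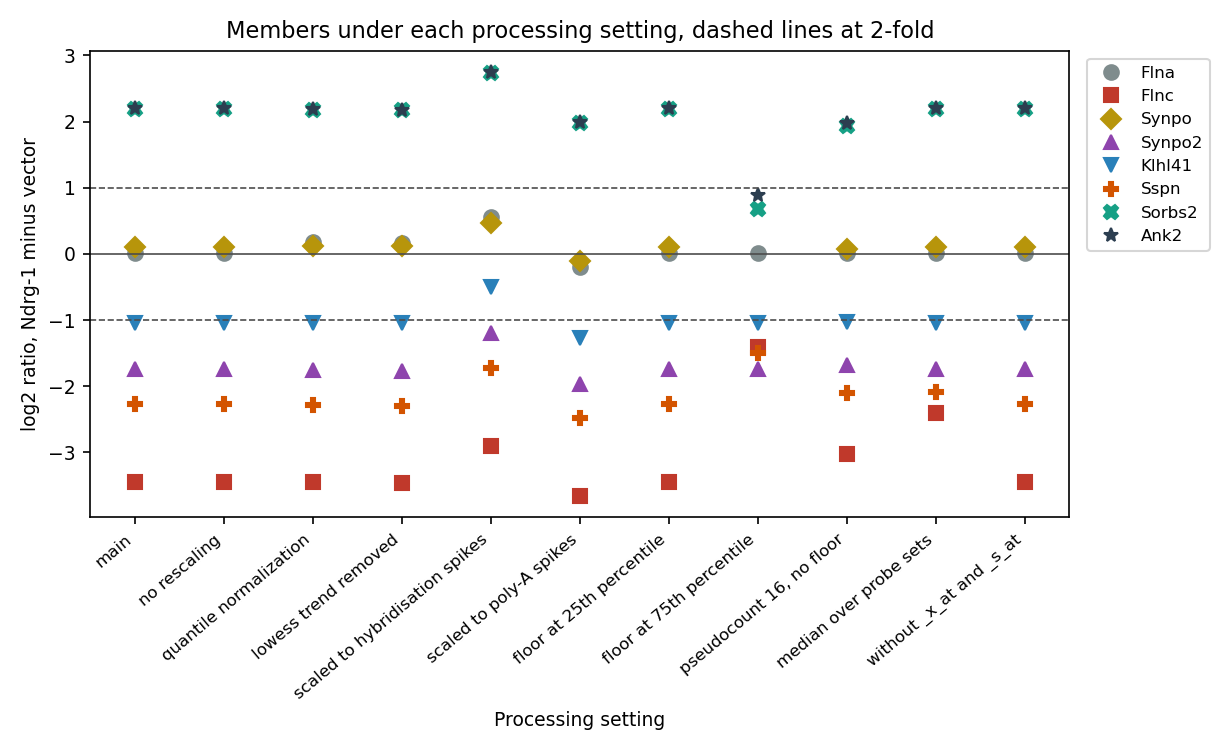
Log2 ratio (Ndrg-1 clone minus vector clone) of the 8 genes under the main processing and 10 alternatives, with dashed lines at 2-fold. Flnc, Sspn and Synpo2 stay below the lower line throughout, Klhl41 rises above it when scaled to the hybridisation spikes, and Sorbs2 and Ank2 drop under the upper line when the floor is raised to the 75th percentile.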

How the data were processed

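RNA from 1 clone per group was hybridised to 1 Affymetrix array each. The authors deposited intensity values, 1 signal per probe set and array. GCOS 1.3 is named for them in the submitters' processing notes. How probe sets were summarised was not given in the sources used here, and the table holds no detection calls. Trimmed by 2% at each end, the mean signal of each array was 150.0, so a common scale was set before deposit. Control probe sets (57 of 31099) were set apart. Of the others, 20826 carried 1 gene symbol, 436 several and 9780 none, and 20758 were matched to RefSeq (GRCr8) by gene ID, all 20 of the 8 genes included.

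The vector signals were multiplied by 1 factor that brought the median log2 ratio over probe sets brighter than the median to 0, signals were set to the floor, and log2 was taken. No test was possible with 1 array per group, and the number of arrays limits the precision. The members, the 17 gene lists and the motifs were chosen with earlier results, or the promoter sequences, of these data known. Named genes are all member probe sets, their relatives, in each list those at 2-fold (at most 4 per direction, otherwise up to 2 with the largest ratios), and the genes next to each member in the order of ratios; further list genes were chosen after their values were seen. Counting was checked on simulated data. The alternatives left the deposited scale as it was, used quantile normalization, took out a lowess trend, scaled to 18 hybridisation or 24 poly-A spike probe sets, set the floor at the 25th or the 75th percentile, added a pseudocount of 16 with no floor, took the median over probe sets, or left out _x_at and _s_at probe sets. The software was Python 3.11.15 with statsmodels 0.14.6, pandas 2.3.3, numpy 2.4.6 and, for figures, matplotlib 3.10.9.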

Additional observations from a re-analysis of the deposited data

How the results depend on the processing

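The counts of 4 genes at least 2-fold lower and 2 at least 2-fold higher among the 8 were kept within 1.5 times under all 10 alternatives, except that 0 were higher with the floor at the 75th percentile. Over all measured genes, 149 were higher and 138 lower. Scaling to the hybridisation spikes gave 679 higher and 40 lower, as it moved the median gene by 0.53 on the log2 scale, and scaling to the poly-A spikes gave 254 lower, as it moved the median gene by -0.21. A floor at the 25th percentile, which lets in 12281 genes, gave 444 higher and 463 lower, and one at the 75th percentile, which leaves 5751, gave 23 higher and 34 lower. No gene named in the text as 2-fold different turned direction under any alternative that gave it a ratio. No paired analysis was possible because each group has 1 array. Signals near the floor limit Synpo, Ank3, Flnc in the Ndrg-1 clone, and the dim probe sets of Sspn, Synpo2 and Ank2.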

Other observations

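Non-muscle myosin II is the motor that pulls on the actin that filamins cross-link. Among 9 measured genes of the motor and its regulators, the regulator Mylk was at least 2-fold higher and the heavy chain gene Myh10 at least 2-fold lower, with a median log2 ratio of 0.02 that was below 0 under 3 of the 10 alternatives, among them scaling to the poly-A spikes (-0.19). Myh10, the heavy chain of myosin IIB, read 53.4 in the Ndrg-1 clone and 260 in the vector clone, 4.88-fold lower, while Myh9, the heavy chain of myosin IIA, read 1073 and 982 (0.12). Mylk encodes the kinase that activates myosin II. It read 230 in the Ndrg-1 clone and 15.7, under the floor, in the vector clone, at least 7.42-fold higher. Its other probe set was under the floor in both arrays and has no ratio. When the floor was raised to the 75th percentile neither Mylk (0.42 or more) nor Myh10 (-0.60 or lower) reached 2-fold. The kinases Rock1 and Rock2 were at 0.45 and 0.18.

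Myh1, annotated as a fast skeletal myosin heavy chain, stood well above the floor although most sarcomere genes were under it. Its brightest probe set read 902 in the Ndrg-1 clone and 576 in the vector clone (0.64), and its 4 other measured probe sets had log2 ratios from 0.22 to 0.79. Mybpc3, the cardiac myosin-binding protein, read 55.4 and 6.92, at least 1.79-fold higher.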
